A study of Mus musculus with 6 samples.

Results

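The transcripts described here are those of 9 genes of the low-density lipoprotein (LDL) receptor family and the sortilins: the receptors Lrp1, Vldlr, Lrp8, Lrp5, Lrp6 and Lrp10, their folding chaperone Lrpap1, and the sorting receptors Sorl1 and Sort1. They were taken by symbol from a table of 48587 genes. The set was selected from results of the same contrast that is described here, METTL7A1 against mock, so the levels, fold changes and counts of these 9 genes are a description and no p value is given for any of them. Total RNA was measured in 4T1, a mouse mammary carcinoma line, in 3 libraries labelled Mettl7a1 (METTL7A1) and 3 labelled mock, to ask which transcripts differ when the putative methyltransferase METTL7A1 is overexpressed.

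METTL7A1 cells had been stably transfected with the full-length Mettl7a1 cDNA behind a CMV promoter and kept under G418. Mock cells are the controls of the same line. In the study, mock 4T1 cells carried the empty vector, and the METTL7A1 vector added a FLAG tag. The labels repeat one transfection text for both groups. Whether either line was a pool or a single clone is not given in the sources used here. Both groups were labelled as biological triplicates. How the triplicates were separated is not given in the sources used here, so the p values below, which concern other genes, measure only the spread between these libraries. In bulk RNA, fewer cells expressing a gene and less RNA per cell cannot be told apart.

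The 6 libraries held between 18386780 and 28459338 counts. The Mettl7a1 gene had 30, 30 and 29 counts in the mock libraries and 6355, 11358 and 10398 in the METTL7A1 libraries, in the order of replicates 1 to 3 that is used throughout. All 7 genes listed as markers of the carcinoma cells, the mesenchymal Vim among them, were expressed. In mock their summed level lay between 2260 and 2750 cpm (counts relative to the scaled total of the library). Their sum in METTL7A1 lay between 2180 and 2600 cpm. Of them Krt7, a simple-epithelial keratin, and Cldn7, a tight junction claudin, were higher in METTL7A1 by edgeR's quasi-likelihood test, with log2 fold changes of 0.50 and 0.33 (adjusted p = 0.00126 and 0.0298). The groups of Cldn7 overlapped, METTL7A1 replicate 1 being at 61.8 cpm against 62.4, 61.2 and 57.0 cpm in mock, and Krt7 was at 0.18 with the median of its chromosome neighbours taken off. The epithelial genes Krt8, Krt18, Epcam and Cdh1 were not called by that test. Their log2 fold changes were 0.0045, 0.24, -0.16 and -0.02 (adjusted p = 0.978, 0.114, 0.30 and 0.879). Vim, the mesenchymal intermediate filament, was lower by the same test, at -1.16 (adjusted p = 1.17e-05). Its mean was 564 cpm in mock and 252 cpm in METTL7A1. Vim is part of the sums above, which are thus no measure of the epithelial genes alone. Of 10 markers of immune, endothelial, fat, fibroblast and muscle cells, 8 stayed under the abundance filter, at least 1 cpm in at least 3 libraries, with at most 22 counts in any library. Among these 8, Cd3e, the T-cell receptor subunit, was at 0 in every library, while Ptprc and Adgre1, the defining markers of leukocytes and macrophages, reached at most 8 and 1 counts. The other 2, Csf1r and Pdgfra, were both called higher in METTL7A1, at 1.68 and 0.47 (adjusted p = 0.000506 and 0.00177). The summed level of the 10 lay between 18.9 and 21.2 cpm in mock and between 27.2 and 30.1 cpm in METTL7A1. Csf1r passed the filter through the METTL7A1 libraries alone, at 2.48, 2.47 and 2.27 cpm. The part of these marker differences in the values below was not tested.

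Receptors of the LDL receptor family are type I membrane proteins that bind ligands with clusters of cysteine-rich repeats, carry them through clathrin-coated pits, release them in acidic endosomes and return to the surface. Some members bind lipoproteins and proteases, others act as signalling co-receptors, as LRP5 and LRP6 do for Wnt. Sortilin and SORLA, the products of Sort1 and Sorl1, belong to the VPS10 family and move cargo between the trans-Golgi network, endosomes and the surface. The chaperone RAP, the product of Lrpap1, keeps newly made receptors from binding ligands in the endoplasmic reticulum.

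All 9 genes passed the abundance filter, Sort1 through the mock libraries alone. At an adjusted p under 0.05 in edgeR's quasi-likelihood test over all genes, 7 of the 9 were called, 5 higher in METTL7A1 (Lrp1, Sorl1, Lrp6, Lrp5 and Lrp8) and 2 lower (Sort1 and Lrp10). Of all 13166 genes tested, 42.1% were called, 21.1% higher and 21.0% lower. Past the thresholds of the study, an adjusted p under 0.01 and an absolute log2 fold change over 1.5, there were 2 of the 9, Lrp1 and Sort1, against 2.48% of all genes. The libraries of both groups did not overlap for the same 7 genes and overlapped for Vldlr and Lrpap1, and 51.6% of all genes tested did not overlap. The median log2 fold change was 0.29 over the 9 genes and -0.03 over all genes. As the contrast chose the genes, nothing is read from these shares.

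**Figure D1:**
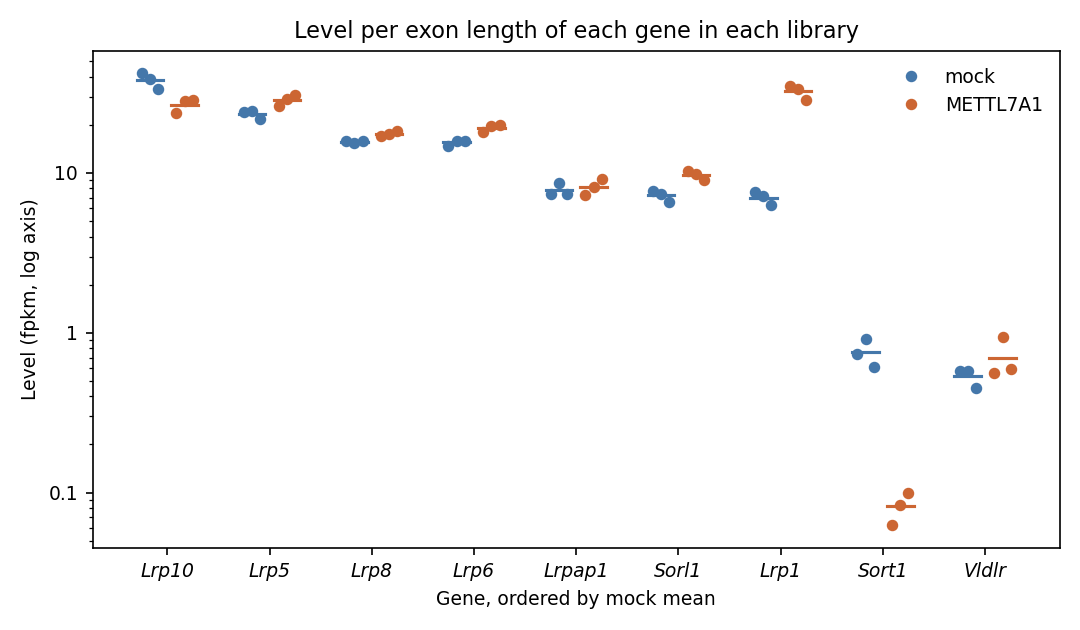
Level of each gene per exon length (fpkm, the cpm per 1000 bases of exon, on a log axis) in each of 6 libraries, with points for libraries, lines for group means, mock in blue and METTL7A1 in orange, and genes ordered by their mock mean. Lrp1 stood at 7.01 fpkm in mock and 32.5 fpkm in METTL7A1, Sort1 at 0.754 and 0.0819 fpkm, and the points of Vldlr and Lrpap1 overlapped between groups.

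Lrp1 encodes a large endocytic receptor for apolipoprotein E, proteases bound to their inhibitors, and matrix proteins. It lies on the minus strand of chromosome 10 (chr10:127538161-127621148, mm10) and has 16305 bases of exon. Its level was 123, 116 and 103 cpm in the mock libraries and 571, 550 and 468 cpm in the METTL7A1 libraries. Every METTL7A1 library was far above every mock library, and the 3 libraries within a group lay close together. The mean level was 4.64-fold higher in METTL7A1, a log2 fold change of 2.21 (SE 0.10), which stood at rank 78 from the top of the 13166 genes. Leaving out each library in turn gave log2 fold changes between 2.15 and 2.30.

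The neighbours of Lrp1 on its chromosome were also higher. Of its 40 nearest tested genes with a mean log2 cpm over 2, spread over 1.62 Mb, 38 had a positive log2 fold change, with a median of 0.53 and a range from -0.11 to 2.40. With that median taken off, the log2 fold change of Lrp1 was 1.68. The number of gene copies in either line was not measured, so a part of it in this value was not tested.

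The stretches of 250 bases upstream of the annotated start are shown for 3 called members whose start in the deposited table lay within 17 bases of a RefSeq start, 2 of them higher in METTL7A1 (Lrp1 and Sorl1) and 1 lower (Lrp10). They are RefSeq sequences of build GRCm38.p6, read 5′ to 3′ on the strand of the gene. Capitals mark GGGCGG, the GC box bound by Sp1 factors, and CACGTG, the E-box bound by basic helix-loop-helix factors such as USF and MYC, on either strand (a GC box on the other strand reads CCGCCC).
Lrp1 at chr10:127621149-127621398, minus strand: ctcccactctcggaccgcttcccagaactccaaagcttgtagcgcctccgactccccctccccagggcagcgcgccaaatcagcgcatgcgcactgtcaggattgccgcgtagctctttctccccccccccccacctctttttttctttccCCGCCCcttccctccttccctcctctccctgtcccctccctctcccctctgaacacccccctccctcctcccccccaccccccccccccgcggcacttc
Sorl1 at chr9:42124298-42124547, minus strand: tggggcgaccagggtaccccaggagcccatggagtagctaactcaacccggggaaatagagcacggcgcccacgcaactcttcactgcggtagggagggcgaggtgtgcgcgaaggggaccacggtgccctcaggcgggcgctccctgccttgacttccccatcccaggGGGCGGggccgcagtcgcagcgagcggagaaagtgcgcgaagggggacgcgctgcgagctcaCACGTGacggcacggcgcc
Lrp10 at chr14:54463897-54464146, plus strand: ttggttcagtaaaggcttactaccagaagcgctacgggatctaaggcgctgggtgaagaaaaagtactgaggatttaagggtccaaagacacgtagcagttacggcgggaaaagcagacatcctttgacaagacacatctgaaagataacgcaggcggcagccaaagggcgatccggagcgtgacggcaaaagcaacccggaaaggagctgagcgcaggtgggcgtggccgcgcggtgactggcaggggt

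The upstream stretch of Lrp1 held 1 GC box in a long run of pyrimidines, and that of Sorl1 held 1 GC box and 1 E-box close to the start. That of Lrp10 held neither. GGGCGG was found in the same window of 32.7% of 32851 RefSeq promoters and CACGTG in 6.02%. Searched on both strands as well were TCACNCCAC, the sterol regulatory element (1.05% of promoters), TGANTCA, the AP-1 site (6.75%), TGATGNAA, the composite site of C/EBP and ATF factors (3.45%), TATAAA (12.4%) and CCAAT (33.8%). None of these 5 was in the 3 stretches shown. RefSeq entries matched 6 of the 9 genes, and the other 3, Lrp5, Lrp6 and Sort1, had no entry. Of the matched genes not shown, Lrpap1, which was not called, had 5 matches of GGGCGG. Vldlr, also not called, had 1 in the entry at its start in the deposited table. Lrp8, called higher, had 0 in each of its entries, the nearest of which began 608 bases from its start. A match is a run of letters and not a measured binding site.

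Vldlr and Lrp8 encode the very-low-density lipoprotein receptor and the apolipoprotein E receptor 2, which share a domain order and both bind reelin. They stood far apart in level. Vldlr (chr19:27217020-27254231, plus strand) had 88, 116 and 93 counts in mock and 86, 230 and 121 in METTL7A1, which is 4.81, 4.79 and 3.74 cpm against 4.63, 7.79 and 4.91 cpm. METTL7A1 replicate 2 was the highest of the 6 libraries, and METTL7A1 replicate 1 was within the mock range, so the groups overlapped. Vldlr was not called. Its log2 fold change was 0.40 (SE 0.21), 0.11 without METTL7A1 replicate 2 and 0.21 with the median of its chromosome neighbours taken off.

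Lrp8 (chr4:107802277-107873899, plus strand) was at 74.5, 72.3 and 74.6 cpm in mock and at 80.7, 82.4 and 86.5 cpm in METTL7A1. All METTL7A1 libraries were higher than all mock libraries, by a small margin. The log2 fold change of 0.17 (SE 0.06) was the smallest among the called members, and the call was lost in 9 of 14 alternatives. These included DESeq2, limma's voom and the fits without mock replicate 1 (0.20), mock replicate 2 (0.16), METTL7A1 replicate 2 (0.18) or METTL7A1 replicate 3 (0.15). Per exon length, Lrp8 had 29.6 ± 4.72 times the level of Vldlr in mock and 26.8 ± 7.06 times in METTL7A1 (mean ± SD, n = 3), and the libraries overlapped.

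Lrp5 and Lrp6 encode the paired co-receptors that bind Wnt together with a Frizzled protein. Lrp5 (chr19:3584828-3686564, minus strand) was at 145, 146 and 131 cpm in mock and at 157, 175 and 185 cpm in METTL7A1. Lrp6 (chr6:134446476-134566913, minus strand) was at 138, 149 and 149 cpm in mock and at 170, 183 and 188 cpm in METTL7A1. Both were somewhat higher in every METTL7A1 library than in any mock library, with log2 fold changes of 0.29 (SE 0.08) for Lrp5 and 0.31 (SE 0.07) for Lrp6. The call of Lrp5 was lost without METTL7A1 replicate 2 (0.28) or replicate 3 (0.24), and that of Lrp6 was kept in all 14 alternatives. The ratio of Lrp6 to Lrp5, per exon length, was 0.665 ± 0.0588 in mock and 0.672 ± 0.0190 in METTL7A1 (mean ± SD, n = 3), with overlapping libraries.

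Lrp10 encodes a smaller receptor of the family that moves between the trans-Golgi network, endosomes and the surface. Its gene (chr14:54464164-54471497, plus strand) follows the stretch printed above. It was at 177, 162 and 141 cpm in mock and at 100.2, 118 and 120 cpm in METTL7A1. All METTL7A1 libraries were lower, and METTL7A1 replicate 1 was the lowest. The level in mock was 1.42-fold that in METTL7A1, a log2 fold change of -0.50 (SE 0.10). Of its 40 chromosome neighbours, 32 had a negative log2 fold change, with a median of -0.30. With the neighbour median taken off, the value was -0.20 and Lrp10 was no longer called.

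Lrpap1, the gene of the chaperone RAP (chr5:35091501-35105766, minus strand), was at 22.1, 25.7 and 22.1 cpm in mock and at 21.7, 24.2 and 27.2 cpm in METTL7A1. The groups overlapped, with the lowest and the highest library both in METTL7A1. The log2 fold change was 0.06 (SE 0.10), and it was not called. Without METTL7A1 replicate 3 the value was -0.02. Lrp1, a main client of RAP, differed from it in this respect. The ratio of Lrp1 to Lrpap1 per exon length was 1.02, 0.826 and 0.851 in mock and 4.81, 4.16 and 3.15 in METTL7A1.

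Sorl1 encodes SORLA, which carries the amyloid precursor protein and other cargo from endosomes back to the Golgi. Its gene (chr9:41964720-42124297, minus strand) was at 83.0, 79.1 and 70.9 cpm in mock and at 111, 106 and 96.4 cpm in METTL7A1. All METTL7A1 libraries were higher, with a log2 fold change of 0.43 (SE 0.08), and the call was kept in all 14 alternatives. The median of its chromosome neighbours was -0.09.

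Sort1 encodes sortilin, which takes progranulin, prosaposin, proneurotrophins and lipoprotein lipase to endosomes and lysosomes. Its gene (chr3:108284082-108361511, plus strand) had 93, 154 and 104 counts in mock and 8, 17 and 17 counts in METTL7A1. These are 5.08, 6.35 and 4.19 cpm against 0.431, 0.576 and 0.689 cpm. Even the highest METTL7A1 library was far below the lowest mock library, but the depth behind the METTL7A1 values is small: the 95% Poisson interval of the 8 counts runs from 3.45 to 15.8 and covers counting error only. The level in mock was 9.21-fold that in METTL7A1, a log2 fold change of -3.17 (SE 0.26), which stood at rank 35 from the bottom of the 13166 genes. Leaving out METTL7A1 libraries gave values between -3.32 and -3.03. Without any one mock library the gene no longer passed the filter and had no value. The median of its chromosome neighbours was -0.09.

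The sortilin genes differed between groups in opposite directions. The ratio of Sorl1 to Sort1, per exon length, was 10.5, 8.02 and 10.9 in the mock libraries and 166, 119 and 90.1 in the METTL7A1 libraries. Both genes overlap an annotated gene on the opposite strand, Gm16214 in Sorl1 with 2 to 10 counts and Gm12523 in Sort1 with 0 to 1 counts.

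**Figure D2:**
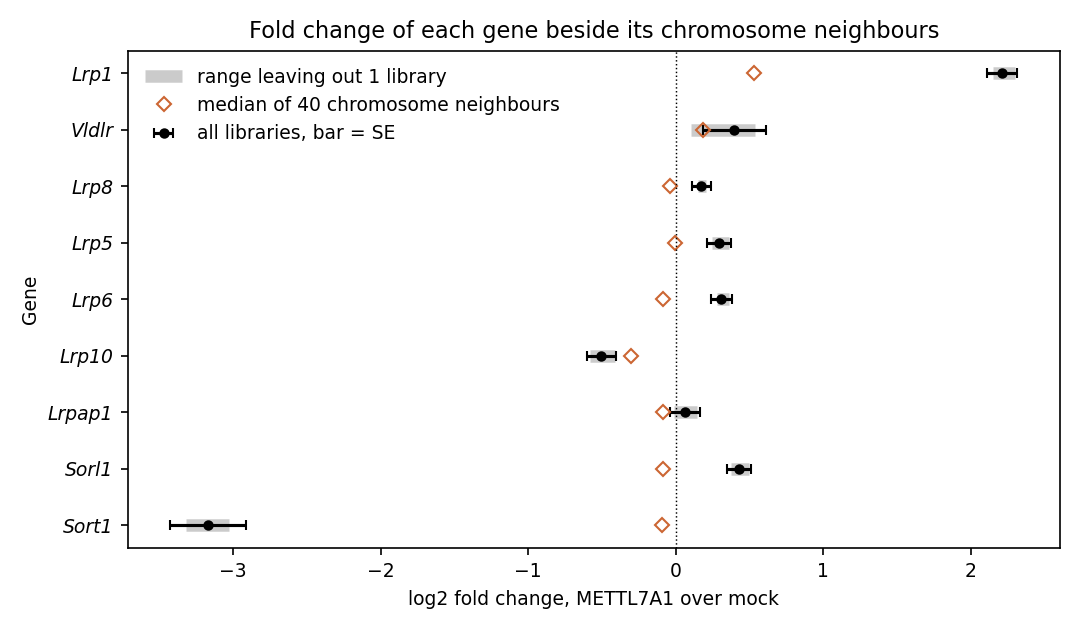
Log2 fold change of each gene (METTL7A1 over mock, horizontal axis) from all 6 libraries with its SE, the range of values when 1 library was left out (grey bar), and the median of its 40 chromosome neighbours (open diamond). The neighbours of Lrp1 stood at 0.53 and those of Lrp10 at -0.30, while the medians of the other genes lay between -0.09 and 0.19.

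The order of levels per exon length changed between the groups. In mock, Lrp10 was the highest at 38.1 ± 4.25 fpkm, followed by Lrp5 at 23.4 ± 1.36, Lrp8 at 15.6 ± 0.273 and Lrp6 at 15.5 ± 0.675 fpkm (mean ± SD, n = 3). Lrpap1 at 7.82 ± 0.704, Sorl1 at 7.25 ± 0.576 and Lrp1 at 7.01 ± 0.630 fpkm came next, and Sort1 at 0.754 ± 0.158 and Vldlr at 0.535 ± 0.0733 fpkm were the lowest. Neighbours in this order had separate libraries except Lrp8 with Lrp6, Lrpap1 with Sorl1 and Sorl1 with Lrp1.

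In METTL7A1, Lrp1 led at 32.5 ± 3.34 fpkm, ahead of Lrp5 at 28.7 ± 2.32 and Lrp10 at 26.8 ± 2.57 fpkm, but the libraries of neighbours among these 3 overlapped. Lrp6 at 19.2 ± 1.03 and Lrp8 at 17.6 ± 0.638 fpkm overlapped as well, as did Sorl1 at 9.75 ± 0.685 and Lrpap1 at 8.17 ± 0.916 fpkm. Vldlr at 0.695 ± 0.210 fpkm was above Sort1 at 0.0819 ± 0.0187 fpkm without overlap. Lrp1 had thus gone from the seventh to the first place in the order of means, and Lrp10 from the first to the third.

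The summed level of the 9 genes was 121, 119 and 109 fpkm in mock and 138, 147 and 145 fpkm in METTL7A1. Lrp1 held 6.03% ± 0.222 of the sum in mock and 22.7% ± 2.77 in METTL7A1 (mean ± SD, n = 3). Lrp10 held 32.7% ± 1.95 and 18.7% ± 1.26. The share of Lrp5 was 20.2% ± 0.215 and 20.0% ± 1.15, and that of Lrp6 was 13.4% ± 1.22 and 13.4% ± 0.399. The ratio of Lrp1 to Lrp10, per exon length, was 0.180, 0.185 and 0.188 in mock and 1.47, 1.20 and 1.01 in METTL7A1. Lrp1 was thus below Lrp10 in every mock library. It was above Lrp10 in every METTL7A1 library, but by very little in replicate 3, at 28.7 against 28.48 fpkm.

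**Figure D3:**
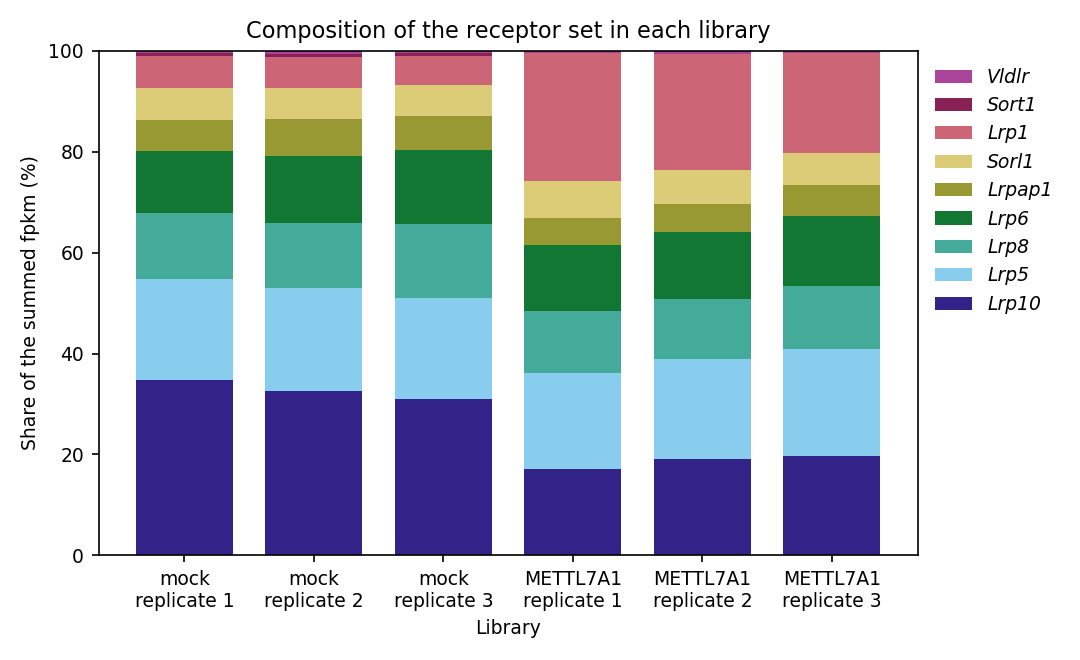
Share of each gene in the summed fpkm of the 9 genes (%), with 1 bar for each of the 6 libraries. The share of Lrp1 was between 5.82% and 6.26% in mock and between 19.8% and 25.3% in METTL7A1, and that of Lrp10 was between 30.9% and 34.8% in mock and between 17.2% and 19.6% in METTL7A1.

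The gene with the largest absolute log2 fold change among the 9 was Sort1, and the 3 genes with the most similar pattern over the 6 libraries were sought. Likeness was the Euclidean distance of log2 cpm centred on the mock mean. The closest were Sema3c, a secreted semaphorin (distance 0.476), the non-coding RNA Lncenc1 (0.633) and Tnc, the matrix protein tenascin-C (0.678). Sema3c was at 13.0 ± 0.586 cpm in mock and 1.76 ± 0.288 cpm in METTL7A1, Lncenc1 at 58.2 ± 5.52 and 6.38 ± 0.351 cpm, and Tnc at 93.0 ± 10.0 and 11.3 ± 1.07 cpm (mean ± SD, n = 3). For Lrp1, which was added after its values were seen, the closest were Itgb2, the beta chain of the leukocyte integrins (0.294), Cp, which encodes ceruloplasmin (0.299), and the predicted gene Gm4070 (0.315). Itgb2 lies on the chromosome of Lrp1.

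Around the receptors, 10 lists of other genes were examined: further receptors, chaperones, adaptors, sorting factors, proteases, ligands and signalling partners. They held 126 genes that are not among the 9, of which 92 were tested and 46 were called at an adjusted p under 0.05 in the fit over all genes, where 42.1% of genes were called. All adjusted p values below are from edgeR's quasi-likelihood test with Benjamini-Hochberg adjustment over all 13166 genes.

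**Figure D4:**
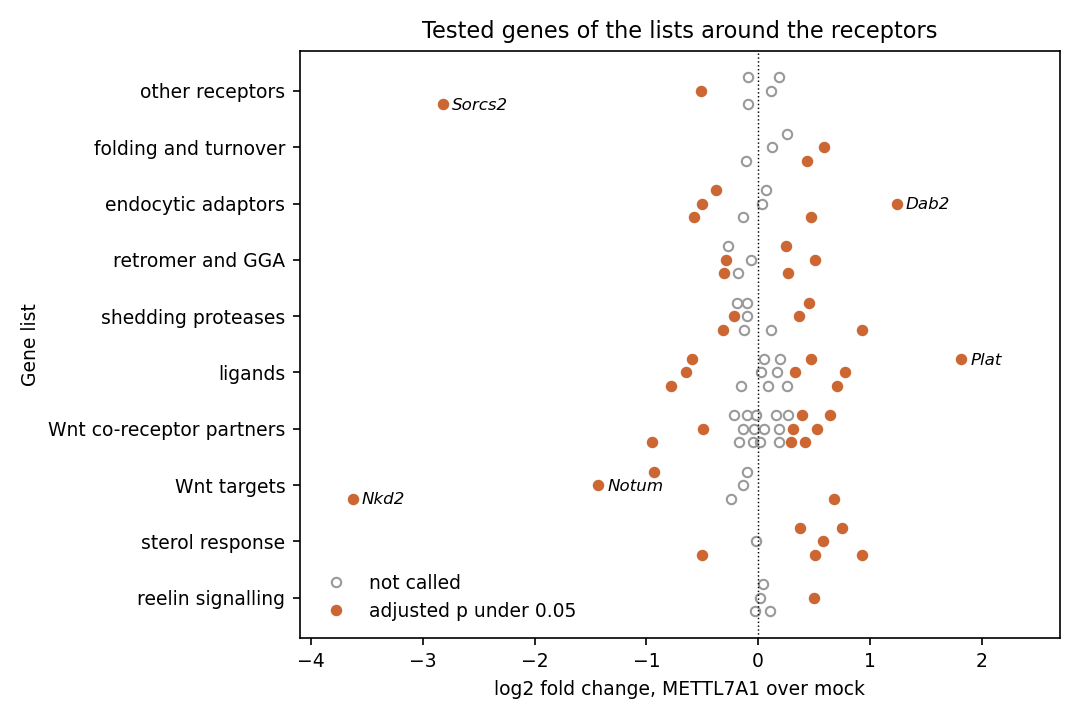
Log2 fold change (METTL7A1 over mock, horizontal axis) of every tested gene of the 10 lists (rows), filled where the adjusted p was under 0.05 and open otherwise. Sorcs2 and Nkd2 stood farthest to the left at -2.82 and -3.63, and Plat and Dab2 farthest to the right at 1.82 and 1.24.

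Of 13 other receptors of these families, 6 were tested and 2 were called, both lower, with a median log2 fold change of -0.09 over the 6. The 7 under the filter, among them Lrp2 (megalin) and Lrp1b, had at most 6 counts in any library. Sorcs2, another VPS10 receptor, was at 36.0, 33.0 and 30.1 cpm in mock and at 5.23, 4.74 and 4.06 cpm in METTL7A1. All METTL7A1 libraries were far below mock, with a log2 fold change of -2.82 (SE 0.12, adjusted p = 4.77e-08). Lrp4, which binds agrin and sclerostin, was at -0.51 (adjusted p = 0.0267), and its call was lost in 7 of 14 alternatives, those without mock replicate 1 (-0.50), mock replicate 3 (-0.44), METTL7A1 replicate 2 (-0.47) and METTL7A1 replicate 3 (-0.51) among them.

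Among 6 genes listed for protein folding and receptor turnover, not all of them particular to these receptors, 5 were tested. Of these 2 were called, both higher, with a median of 0.26. Hspa5, the endoplasmic reticulum chaperone BiP, was at 1730, 1900 and 1570 cpm in mock and at 2410, 2730 and 2680 cpm in METTL7A1. Its log2 fold change was 0.59 (SE 0.11, adjusted p = 0.00166). Cnpy4, a saposin-like endoplasmic reticulum protein, was at 0.44 (adjusted p = 0.0151), and that call was lost without mock replicate 1 (0.40), METTL7A1 replicate 2 (0.39) or METTL7A1 replicate 3 (0.38). Mesdc2, the chaperone that LRP5 and LRP6 need to leave the endoplasmic reticulum, was at 0.12 (adjusted p = 0.448). Mylip, a ubiquitin ligase for receptors of the family, was at -0.11 (adjusted p = 0.586).

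Of 10 adaptors that bind the cytoplasmic tails or coat of the receptors, 8 were tested and 5 were called, 2 higher and 3 lower, with a median of -0.05. Dab2, the clathrin adaptor that sorts megalin and related receptors, was at 11.8, 13.7 and 15.5 cpm in mock and at 32.5, 32.2 and 32.6 cpm in METTL7A1. The groups were well apart, with a log2 fold change of 1.24 (SE 0.10, adjusted p = 4.57e-06). Apbb1, which encodes the tail-binding protein FE65, was higher at 0.47 (adjusted p = 0.0178), a call that was lost without METTL7A1 replicate 2 (0.42) or replicate 3 (0.45). Snx17, the sorting nexin that recycles LRP1, was lower at -0.38 (SE 0.08, adjusted p = 0.00218), as was Ap2a1, a subunit of the clathrin adaptor AP-2, at -0.51 (SE 0.08, adjusted p = 0.000338). Numb was at -0.57 (adjusted p = 0.000297), but at -0.12 with its chromosome neighbours taken off, and was then not called.

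The retromer and the GGA adaptors carry sortilins between the Golgi and endosomes. All 8 listed genes were tested and 5 were called, 3 higher and 2 lower, with a median of -0.12. Vps26a was at 62.0, 67.3 and 59.0 cpm in mock and at 82.0, 91.2 and 94.6 cpm in METTL7A1 (log2 fold change 0.51, adjusted p = 0.000432). Its paralog Vps26b was at -0.29 (adjusted p = 0.010) and the core subunit Vps29 at -0.30 (adjusted p = 0.0105). Vps35, the core scaffold, was at -0.07 (adjusted p = 0.562). Gga1 was at 0.25 and Pacs1 at 0.27 (adjusted p = 0.0139 and 0.0158). With the chromosome neighbours taken off, Vps26a was at -0.002, Gga1 at 0.03, Vps26b at -0.16 and Vps29 at -0.17, and only Pacs1 of these 5 was still called. The call of Pacs1 was lost without mock replicate 2 (0.22), METTL7A1 replicate 2 (0.27) or METTL7A1 replicate 3 (0.24), that of Vps26b without mock replicate 1 (-0.24) and that of Vps29 without METTL7A1 replicate 2 (-0.30).

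Ectodomains of the receptors are shed by surface proteases, and the remaining stubs are cut by gamma-secretase. Of 11 listed genes 10 were tested and 5 were called, 3 higher and 2 lower, with a median of -0.10. Aph1b, a gamma-secretase subunit, was at 5.08, 6.52 and 5.19 cpm in mock and at 10.6, 10.3 and 11.3 cpm in METTL7A1, a log2 fold change of 0.93 (SE 0.13, adjusted p = 0.000255). Its paralog Aph1a was lower, at -0.31 (adjusted p = 0.0122), and not called without mock replicate 2 (-0.26) or METTL7A1 replicate 2 (-0.29), nor with its chromosome neighbours taken off (-0.21). The sheddases Adam10 and Bace1 were higher, at 0.45 (adjusted p = 0.00105) and 0.37 (adjusted p = 0.00301). Adam17 was lower at -0.22 (adjusted p = 0.0303), but at 0.35 with its chromosome neighbours taken off. It was called in 1 of the 6 fits that left out a library, the one without mock replicate 3, with values between -0.25 and -0.17 over these fits.

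Of 22 ligands and cargo genes, 15 were tested and 8 were called, 5 higher and 3 lower, with a median of 0.17. Plat, tissue plasminogen activator, whose complexes with its inhibitor LRP1 clears, was at 2.68, 4.09 and 3.42 cpm in mock and at 12.0, 12.5 and 11.8 cpm in METTL7A1. Its log2 fold change was 1.82 (SE 0.15, adjusted p = 6.50e-06). Plau, urokinase, was higher at 0.48 (SE 0.09, adjusted p = 0.00141), and at 0.89 with its chromosome neighbours taken off.

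Both lysosomal cargoes of sortilin on the list were higher in METTL7A1. Grn, which encodes progranulin, was at 122, 121 and 102 cpm in mock and at 177, 213 and 203 cpm in METTL7A1 (log2 fold change 0.78, SE 0.09, adjusted p = 7.57e-05). Psap, which encodes prosaposin, was at 355, 347 and 285 cpm in mock and at 505, 564 and 537 cpm in METTL7A1 (0.70, SE 0.10, adjusted p = 0.000199). The groups did not overlap for either gene. With its chromosome neighbours taken off, Psap was at 0.20 and not called, while Grn was at 0.86. Bdnf, another sortilin ligand, was lower at -0.78 (SE 0.11, adjusted p = 0.000205), from 15.8, 15.4 and 14.6 cpm to 8.35, 8.36 and 9.81 cpm. Clu, which encodes clusterin, was lower at -0.65 (SE 0.09, adjusted p = 0.000219).

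The 2 remaining called ligand genes fell outside the naming rule and were added after their values were seen. App, the precursor protein that SORLA and LRP1 bind, was at 0.33 (adjusted p = 0.0171), and Apoe was at -0.59 (adjusted p = 0.0154) on a low level of 5.69 ± 0.785 cpm in mock and 3.79 ± 0.509 cpm in METTL7A1 (n = 3). App was not called without METTL7A1 replicate 2 (0.31), nor Apoe without mock replicate 1 (-0.47), METTL7A1 replicate 2 (-0.56) or METTL7A1 replicate 3 (-0.52), and neither was called with the neighbours taken off (0.19 and -0.38). The abundant matrix ligands Fn1 and Thbs1 were at 0.05 and 0.26 and did not pass the test (adjusted p = 0.761 and 0.0795).

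**Figure D5:**
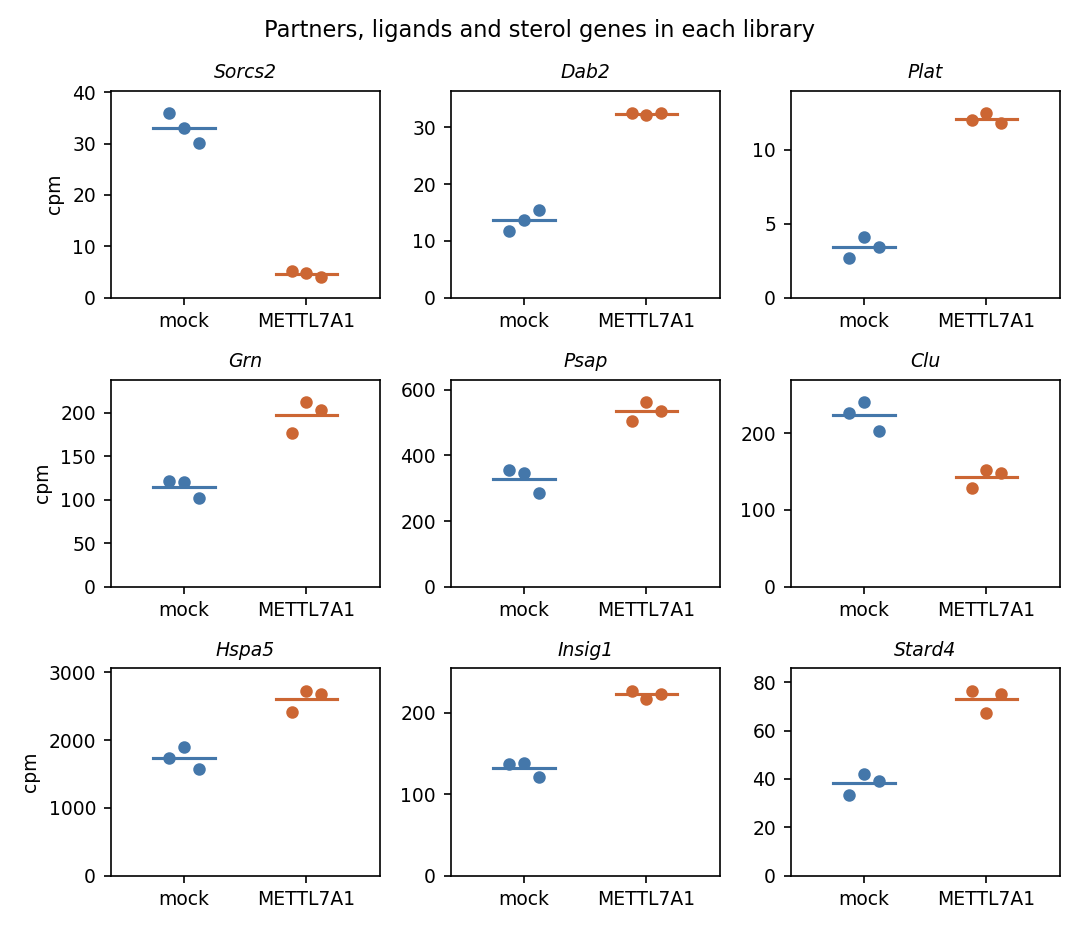
Level (cpm, vertical axes from 0) of 9 genes around the receptors in each library, mock in blue and METTL7A1 in orange, with lines for group means. Sorcs2 and Clu were lower in all 3 METTL7A1 libraries, and Dab2, Plat, Grn, Psap, Hspa5, Insig1 and Stard4 were higher in all 3.

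Among 32 partners of the Wnt co-receptors, 21 were tested and 8 were called, 6 higher and 2 lower, with a median of 0.05. The called Frizzled receptors went different ways, Fzd5 being higher at 0.42 (SE 0.10, adjusted p = 0.00504) and Fzd6 and Fzd9 lower at -0.49 (SE 0.08, adjusted p = 0.000653) and -0.95 (SE 0.20, adjusted p = 0.00301). Fzd6 was at 105, 114 and 99.3 cpm in mock and 68.5, 79.0 and 78.7 cpm in METTL7A1. Fzd9 had only 64, 68 and 70 counts in mock and 29, 49 and 36 in METTL7A1. Csnk1g2, a membrane-bound kinase that phosphorylates the LRP6 tail, was higher at 0.52 (SE 0.08, adjusted p = 0.000263). Lgr4, a receptor for R-spondins, was at 0.39 (adjusted p = 0.00168) and Caprin2, which binds LRP6, at 0.65 (adjusted p = 0.00617). Outside the naming rule, Csnk1a1 was at 0.30 and Csnk1g3 at 0.32 (adjusted p = 0.00665 and 0.00950), and with the neighbours taken off at 0.01 and -0.03. The same offset put Csnk1g2 at 0.25 and Lgr4 at 0.22, and both were still called. The antagonists Dkk1, Dkk2, Dkk3, Dkk4 and Sost were under the filter, with at most 1 count in any library.

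Of 12 transcripts commonly induced by Wnt signalling, 7 were tested and 4 were called, 1 higher and 3 lower, with a median of -0.25. Nkd2 was at 4.26, 3.63 and 3.94 cpm in mock and at 0.162, 0.339 and 0.406 cpm in METTL7A1 (-3.63, SE 0.28, adjusted p = 3.18e-06). It passed the filter through mock alone, and its METTL7A1 counts were 3, 10 and 10. Without any one mock library, or with at least 10 counts in every library, Nkd2 had no value. These 4 of 14 alternatives could not challenge its call. Notum, an enzyme that inactivates Wnt proteins, was lower at -1.43 (SE 0.30, adjusted p = 0.00264). Its counts were low, at 53, 43 and 53 in mock and 14, 18 and 28 in METTL7A1. Tcf7 was lower at -0.93 (SE 0.18, adjusted p = 0.00183). Rnf43, a ubiquitin ligase for Frizzled, was higher at 0.68 (SE 0.14, adjusted p = 0.00301). Axin2 and Lef1, often used as readouts, were under the filter, with at most 28 and 14 counts. Axin2 was at 0.87 ± 0.58 cpm in mock and 0.31 ± 0.19 cpm in METTL7A1 (mean ± SD, n = 3), with overlapping groups. Lef1 was at 0.549 ± 0.027 cpm in mock and 0.072 ± 0.034 cpm in METTL7A1, without overlap. Ccnd1 was at -0.14 (adjusted p = 0.329).

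Of 7 genes of the sterol response, which SREBP factors run, all were tested and 6 were called, 5 higher and 1 lower, with a median of 0.51. Stard4, a cholesterol carrier, was at 33.4, 41.9 and 39.2 cpm in mock and at 76.5, 67.3 and 75.0 cpm in METTL7A1 (0.93, SE 0.09, adjusted p = 2.06e-05). Insig1, which holds SREBP in the endoplasmic reticulum, was at 137, 138 and 121 cpm and at 227, 217 and 223 cpm (0.75, SE 0.08, adjusted p = 2.27e-05). Sqle, Srebf2 and Hmgcs1 were higher at 0.58, 0.51 and 0.38 (adjusted p = 0.000217, 0.000232 and 0.00272). Srebf2 was at 0.25 with its chromosome neighbours taken off and was still called. Scap, the SREBP escort, was lower at -0.50 (adjusted p = 0.00143). Idi1 was at -0.02 (adjusted p = 0.857).

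Reelin, the ligand that VLDLR and LRP8 share, had at most 5 counts, and its adaptor gene Dab1 had none. Of 7 genes of this pathway 5 were tested and 1 was called, with a median of 0.04. That gene, Fyn, which encodes a Src-family kinase, was at 18.8, 18.7 and 16.9 cpm in mock and at 22.8, 27.5 and 26.4 cpm in METTL7A1 (0.50, SE 0.10, adjusted p = 0.00161), and its log2 fold change was 1.02 with its chromosome neighbours taken off. Src was at 0.04 and Crk at 0.02 (adjusted p = 0.691 and 0.871).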

How the data were processed

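The members and gene lists were chosen with earlier results of these data known. Libraries were ribosome-depleted and stranded. The authors trimmed reads, aligned them to mm10 with STAR (version 2.5.3a in the submitters' processing notes) and counted them per gene with featureCounts. The deposited values are raw counts, beside exon coordinates and lengths. Strand and multi-mapping settings are not given in the sources used here. All count columns were used.

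The test was edgeR's quasi-likelihood test (edgeR 4.0.16, R 4.3.3) with TMM scaling, no covariate and Benjamini-Hochberg adjustment over 13166 of 48587 genes, those that reached 1 cpm in 3 or more libraries. SE is the log2 fold change divided by the square root of F. Levels are cpm on TMM-scaled sizes, and fpkm is cpm per 1000 bases of exon. Groups came from the sample titles.

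Named were the members, Mettl7a1, at most 6 called genes per list by smallest p, and the 3 genes most like the member with the largest fold change. Genes named as not called or under the filter were added after their values were seen. Some genes of the lists are not reported here. Alternatives were RLE and upper quartile scaling, no filter, at least 10 counts in every library, DESeq2 1.42.0, limma 3.58.1 voom, a replicate block, an offset by the median of 40 chromosome neighbours and omission of each library.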

Additional observations from a re-analysis of the deposited data

How the results depend on the processing

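Of the 9 members, Lrp1, Lrp6 and Sorl1 kept direction and call in all 14 alternatives. This describes genes that the same contrast had chosen. Sort1, which passed the filter through mock alone, kept both in the 10 alternatives that gave a value. Sort1 had no value in the other 4, those without any one mock library or with at least 10 counts in every library. It failed those filters, so they could not challenge its call. Between 5 and 7 members were called over the 14 alternatives. Genes past the study thresholds numbered 326, and 710 without the filter or 205 with at least 10 counts in every library, settings that test other sets of genes. Leaving out a library gave 3761 to 5753 called genes, 243 to 282 past the study thresholds, 5 to 7 members and 37 to 49 listed genes. The sign turned for Lrpap1 without METTL7A1 replicate 3 (-0.015, up to 0.146 over the fits without a library) and, with the neighbour offset, for Adam17 (0.345), Vps26a (-0.002) and Csnk1g3 (-0.027). The offset gave 4147 called genes.

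The deviations of libraries sharing a replicate number had correlations of mixed sign (-0.15, 0.20 and -0.37). These values come from few libraries per group and cannot show whether the numbers mark pairs. With the replicate block 4810 genes and 6 members were called, the call of Lrp8 (0.17) being lost. Among the members, low counts limit Sort1, with 8 to 17 counts in METTL7A1, and Vldlr. Among the listed genes they limit Nkd2, Notum and Fzd9 as well. No scaling moved the median of all genes by over 0.1.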
